A study of Mus musculus with 8 samples.

Results

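The genes described here encode 10 heat shock proteins of the cytosol and mitochondria: Hspa1a, Hspa1b, Hspa8, Hsph1, Dnajb1, Hsp90aa1, Hsp90ab1, Hspd1, Hspe1 and Hspb1. They were chosen by symbol as named members of the heat shock chaperone families, without use of their measured values, and all 10 were found among the 23361 rows of the deposited transcriptome table. Poly(A) RNA was sequenced from cultured acute myeloid leukaemia lines of mouse strain 129S6, which came from bone marrow cells made leukaemic by the fusion oncogene MLL-AF9. The floxed line was Cdc73fl/fl CreERT2 and the wild type line it was set against was Cdc73 +/+ CreERT2; both carried MLL-AF9 and CreERT2, both were grown with interleukin 3, and both received 7.5 nM 4-hydroxytamoxifen (4OHT) for 24 or 48 h. There were 4 groups (floxed at 24 h, wild type at 24 h, floxed at 48 h, wild type at 48 h), each with 2 biological duplicates, or 8 libraries in all. CreERT2 is a recombinase that 4OHT activates, and Cdc73 is a subunit of the PAF1 complex, which accompanies RNA polymerase II along genes. Each genotype is 1 established line, and libraries of untreated cells were not analysed here; line differences from before 4OHT cannot be told apart from those that followed it.

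Heat shock proteins are chaperones that bind unfolded or partly folded proteins and help them fold, assemble or be degraded. HSP70 proteins work with J-domain partners, which deliver substrates, and with HSP110 proteins, which exchange the bound nucleotide; HSP90 acts later on kinases, receptors and other clients, and HSP60 with HSP10 forms the folding chamber of mitochondria. Some members are made at all times, and others are strongly induced when heat shock factor 1 (HSF1) binds repeats of the unit nGAAn, the heat shock element, near their start sites.

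For each gene and group, the authors' deposited table has a single FPKM (fragments per kilobase and per library size) that combines the duplicates. Levels below are therefore the authors' group values, without SD or n, and a gene is said to be called, to rise or to fall where the authors' q for floxed against wild type cells at that time is under 0.05. Fold values are ratios of FPKM, and log2 differences are taken after adding 1 to each FPKM, so the change of a low gene is understated. Read depth is not given in the table, so no counting interval or detection limit was set. Cdc73 itself stood at 5.96 FPKM in floxed and 26.2 in wild type cells at 24 h, and at 5.45 in floxed and 26.9 in wild type cells at 48 h. Of 8 myeloid markers, 7 were matched in the table and all of those were expressed, with the granule protease gene Elane highest at 1745 to 3587 FPKM, while B and T cell markers reached at most 0.278 FPKM. Of 4 erythroid markers, only Gata1 was expressed, at 0.856 FPKM in floxed and 0.0723 in wild type cells at 24 h and at 2.08 in floxed and 0.174 in wild type cells at 48 h, with Hbb-b1 listed at 0 in all groups; of 4 stromal and endothelial markers, only Pecam1, at 2.35 to 6.91 FPKM, was expressed. The part of these cells in the results was not tested. In bulk RNA, fewer cells of a type and less RNA per cell cannot be told apart.

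Sequences at the start sites are shown for the members with the largest rise (Hspa1b) and the largest fall (Hspd1, with its neighbour Hspe1) at 48 h on the log2(FPKM + 1) scale and for Hsph1, which was called in both directions, with matches to the heat shock element in capitals. They come from RefSeq on GRCm38.p6, the C57BL/6J reference, and not from the 129S6 lines, and 7 of the 10 members had an entry; Hspa8, Hsp90aa1 and Hsp90ab1 had none. A run of 3 units was searched as GAANNTTCNNGAA, and a run of 2 units as GAANNTTC or TTCNNGAA, on both strands, in a window from 250 bases before to 50 bases after the start; a run of 3 contains both kinds of run of 2. Hspd1 and Hspe1 lie head to head on chromosome 1 and share the stretch between their starts, which holds 2 overlapping runs of 3 units, one way round for each gene:

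Hspe1, chr1:55088053-55088082, plus strand: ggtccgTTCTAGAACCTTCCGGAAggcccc

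Hspd1, the same bases on the minus strand: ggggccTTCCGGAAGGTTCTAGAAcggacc

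Hsph1, chr5:149636280-149636308, minus strand: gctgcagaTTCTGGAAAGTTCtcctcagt

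Hspa1b, chr17:34959239-34959488, minus strand: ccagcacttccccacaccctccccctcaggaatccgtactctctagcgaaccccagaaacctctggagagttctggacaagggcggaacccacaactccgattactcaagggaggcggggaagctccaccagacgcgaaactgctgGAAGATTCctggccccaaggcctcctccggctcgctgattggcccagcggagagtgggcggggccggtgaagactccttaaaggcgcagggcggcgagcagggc

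The paired site of Hspd1 and Hspe1 begins 89 bases before the Hspe1 start and 144 bases before the Hspd1 start, and in the GENCODE M21 annotation it falls in the first exon of an alternative Hspd1 transcript. The Hsph1 site lies just after both annotated Hsph1 starts. A run of 2 units that is not shown lies before both, 33 to 26 bases before the upstream start and 54 to 47 before the downstream start. The Hspa1b window holds a run of 2 units 104 to 97 bases before the start, and the 250 bases before the Hspa1a start differ from it at 3 positions, with the same run at the same place. Hspb1 has 2 runs of 2 units, and neither annotated Dnajb1 start has a match in its window. The bases just after either Dnajb1 start were not found in the Dnajb1 transcript with the longest coding sequence, and only exact units were searched. Among 32851 promoters of the same length, 198 (0.603%) hold a run of 3 units, 2582 (7.86%) hold GAANNTTC and 2799 (8.52%) hold TTCNNGAA. A match describes the letters only.

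At 24 h, 5 members were higher in floxed cells and 0 were lower, against 13.4% of 10987 tested genes called higher and 14.2% called lower. The members that rose were the stress-inducible HSP70 genes Hspa1b and Hspa1a, the J-domain gene Dnajb1, the HSP110 gene Hsph1 and the inducible HSP90 gene Hsp90aa1. At 48 h, 3 members were higher (Hspa1b, Hspa1a and Dnajb1) and 5 were lower (Hspd1, Hspe1, Hsp90ab1, Hspa8 and Hsph1), against 25.7% of 11039 tested genes called higher and 31.0% called lower. With the stricter threshold of q under 0.01, 3 members were higher and 0 lower at 24 h, against 8.86% and 9.32% of tested genes, and 2 were higher and 3 lower at 48 h, against 21.1% and 25.1%. In either direction 27.6% of tested genes were called at 24 h and 56.8% at 48 h at q under 0.05. Of the 10 members, 9 reached 1 FPKM in at least 1 group; Hspa1a and Hspa1b did so through floxed cells alone, so their passing already required a difference, and Hspb1 did not reach it. Among the 7 members at 1 FPKM or more in every group the median log2 difference was 0.16 at 24 h and -0.45 at 48 h, beside -0.01 and -0.06 over all 11158 expressed genes.

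**Figure D1:**
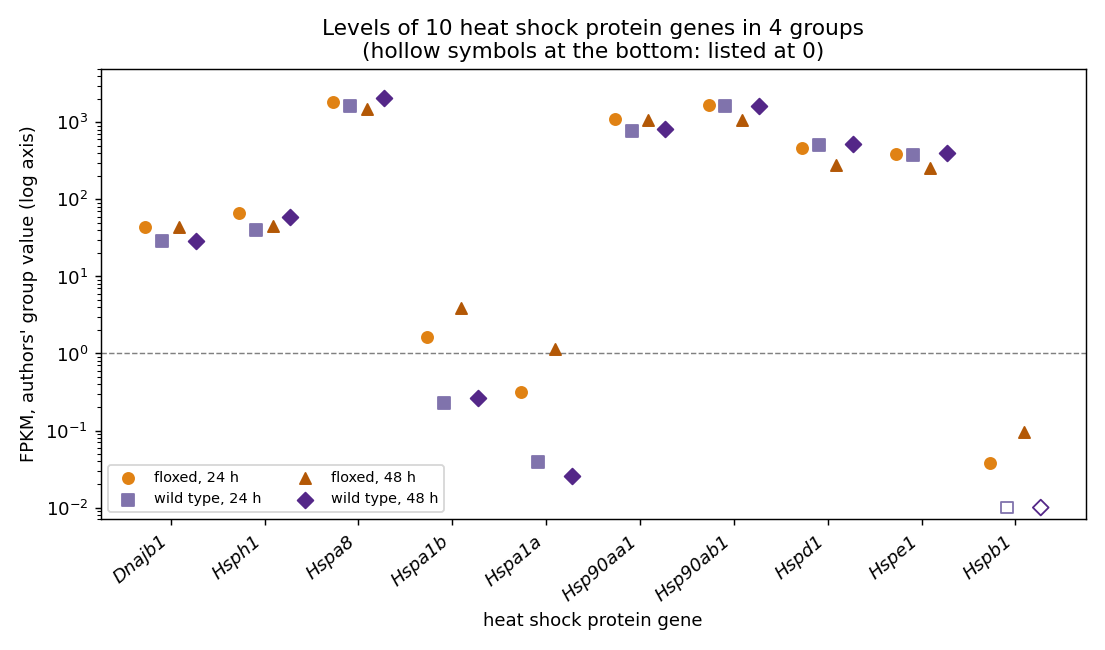
FPKM of each heat shock protein gene on a log axis, 1 point per group (floxed and wild type at 24 h, then floxed and wild type at 48 h); points are the authors' group values, so there are no error bars, the dashed line marks 1 FPKM, and hollow symbols at the bottom mark values listed at 0. Hspa8, Hsp90aa1 and Hsp90ab1 stand between 766 and 2071 FPKM in all groups, whereas Hspa1a and Hspa1b stay under 4 FPKM and are higher in floxed than in wild type cells at both times.

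The stress-inducible HSP70 pair showed the largest relative difference, from a very low base. Hspa1b stood at 1.62 FPKM in floxed and 0.225 in wild type cells at 24 h, and at 3.92 in floxed and 0.265 in wild type cells at 48 h. The authors' deposited table gives a fold of 7.17 with q = 0.000449 at 24 h and a fold of 14.8 with q = 0.000165 at 48 h. No member had a smaller q; Dnajb1 and Hsph1 had the same one at 24 h, and Hspd1 at 48 h. Hspa1a stood at 0.319 FPKM in floxed and 0.0394 in wild type cells at 24 h, and at 1.15 in floxed and 0.0254 in wild type cells at 48 h, with q = 0.0101 and q = 0.0226 in the authors' deposited table. No fold is given for Hspa1a, because its wild type values are near 0 and the number of fragments behind them is not known. Both floxed values lay above both wild type values for each gene, and in floxed cells the 48 h value was the higher one.

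Hspa1b lies on chromosome 17 from 34956436 to 34959238 and Hspa1a from 34969190 to 34972156, both on the minus strand (GENCODE M21, on the mm10 assembly). Their coding sequences differ at 8 aligned positions and by 3 bases of length, an identity of 99.6%, and 62.3% of the 50-base words of the Hspa1b transcript also occur in Hspa1a. Reads could thus have been split between them, and the share given to each is uncertain. If all shared reads were divided within the pair, their summed level does not depend on that split except through transcript length. Whether reads were left out or given to other genes is not stated. Of the Hspa1a words, 66.3% occur in some other gene and 58.8% in Hspa1b. The sum was 1.94 FPKM in floxed and 0.265 in wild type cells at 24 h, and 5.07 in floxed and 0.290 in wild type cells at 48 h. A further copy of the cluster, Hspa1l, stood at 0.815 FPKM in floxed and 0.457 in wild type cells at 24 h, and at 1.13 in floxed and 0.486 in wild type cells at 48 h, and was called higher at both times. It reached 1 FPKM through floxed cells at 48 h alone, so its passing the filter, too, already required a difference.

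Immediate early genes, which respond quickly to growth factors, stress and other stimuli, moved with these genes. Of 17 listed, 15 were expressed. At 24 h, 13 were called higher and 1 lower, and at 48 h, 15 higher and 0 lower. Over all tested genes, 13.4% were called higher and 14.2% lower at 24 h, and 25.7% and 31.0% at 48 h. Egr1 and Nr4a1 reached 1 FPKM through floxed cells alone, so their passing already required a difference. The summed level of the 17 listed genes was 283 FPKM in floxed and 133 in wild type cells at 24 h. At 48 h it was 559 in floxed and 123 in wild type cells. The part of these genes in the rise of Hspa1a and Hspa1b was not tested. The list was chosen after earlier results of these data were known.

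The constitutive HSP70 gene Hspa8, whose product HSC70 handles newly made proteins and clathrin coats, was 386 to 7824 times as high as Hspa1b in FPKM, which is per length. It stood at 1843 FPKM in floxed and 1647 in wild type cells at 24 h, and at 1514 in floxed and 2071 in wild type cells at 48 h. The difference was not called at 24 h (q = 0.592 in the authors' deposited table), and at 48 h Hspa8 was 1.37-fold lower with q = 0.0320. At 48 h the wild type value is the highest of the 4 and the floxed value the lowest. Its position is 40800984 to 40810087 on the plus strand of chromosome 9, and 74.8% of its 50-base words recur in transcripts of other genes, mostly processed pseudogenes, so its level too depends on how shared reads were assigned.

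Dnajb1, the HSP40 partner that delivers substrates to HSP70, kept nearly the same levels at both times in each line. It stood at 43.4 FPKM in floxed and 28.6 in wild type cells at 24 h, and at 43.4 in floxed and 29.0 in wild type cells at 48 h. The ratio was 1.52 at 24 h and 1.50 at 48 h, with q = 0.000449 and q = 0.00112 in the authors' deposited table. Its locus on chromosome 8, from 83608193 to 83612653 on the plus strand, shares 0.441% of its 50-base words with other genes, so few of its reads could be shared with a copy.

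Hsph1, which encodes the HSP110 nucleotide exchange factor of HSP70, was called in opposite directions at the 2 times. It stood at 66.3 FPKM in floxed and 40.6 in wild type cells at 24 h, a 1.63-fold rise with q = 0.000449 in the authors' deposited table. At 48 h it stood at 45.4 in floxed and 58.5 in wild type cells, 1.29-fold lower with q = 0.0462. The values moved in both lines, the 48 h level being 0.686 times the 24 h level in floxed and 1.44 times in wild type cells. Whether both times were scaled in 1 run is not stated, so these time ratios are descriptions, and the change of the genotype difference (-1.05 on the log2 scale) could not be tested on 1 value per group. Over all expressed genes, 18 were called higher at 24 h and lower at 48 h, and 118 the other way round. On chromosome 5 Hsph1 spans 149614287 to 149636376 of the minus strand, and none of its 50-base words occurs in another annotated gene.

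**Figure D2:**
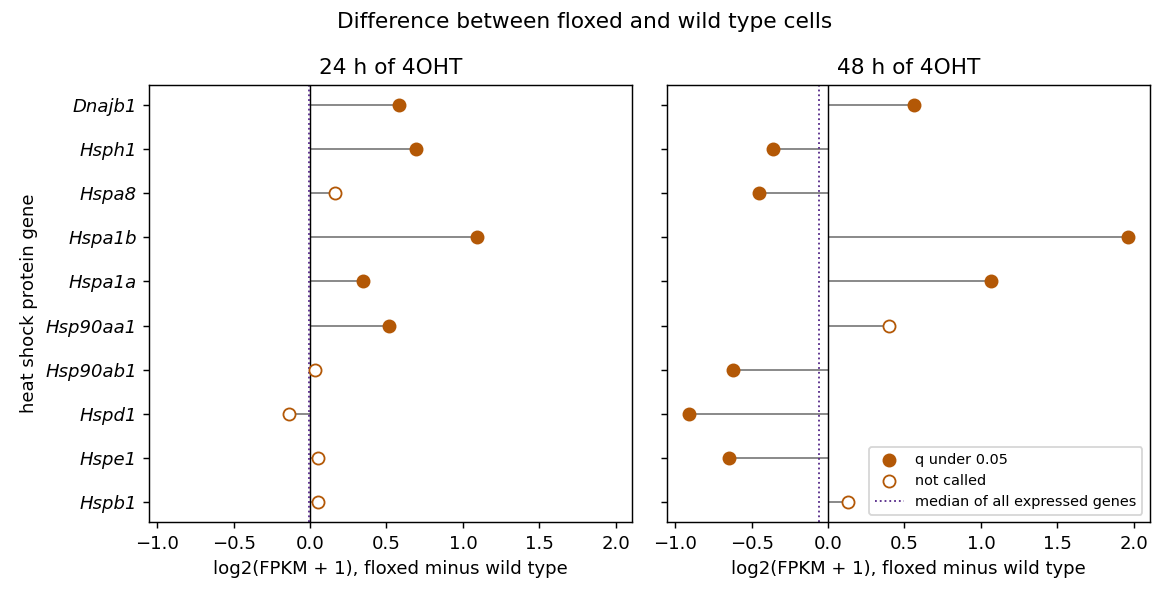
Difference between floxed and wild type cells for each gene at 24 h (left) and 48 h (right), as log2(FPKM + 1) of floxed minus wild type; filled points have the authors' q under 0.05, hollow points do not, and the dotted line is the median of all expressed genes. Hspa1b reaches 1.09 at 24 h and 1.96 at 48 h, while Hspd1 stands at -0.13 and -0.91.

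The 2 cytosolic HSP90 genes were called at different times and in different directions, Hsp90aa1 higher at 24 h and Hsp90ab1 lower at 48 h. Hsp90aa1, the inducible cytosolic HSP90, stood at 1099 FPKM in floxed and 766 in wild type cells at 24 h, 1.43-fold higher with q = 0.0168 in the authors' deposited table. At 48 h it stood at 1072 in floxed and 814 in wild type cells, a ratio of 1.32 with q = 0.0508, just outside the threshold. Hsp90ab1, the constitutive isoform, stood at 1666 FPKM in floxed and 1630.2 in wild type cells at 24 h, with q = 0.936. At 48 h it fell to 1067 FPKM in floxed cells, against 1645 in wild type cells, which is 1.54-fold lower with q = 0.00269. The ratio of Hsp90aa1 to Hsp90ab1 FPKM was 0.660 in floxed and 0.470 in wild type cells at 24 h, and 1.00 in floxed and 0.495 in wild type cells at 48 h. In 3 of the 4 groups the constitutive isoform was the higher one, and in floxed cells at 48 h both stood at the same level; this ratio was not tested. Hsp90aa1 lies on chromosome 12 from 110690605 to 110702728 and Hsp90ab1 on chromosome 17 from 45567775 to 45573271, both on the minus strand. Of the 50-base words, 58.5% of Hsp90aa1 but 4.49% of Hsp90ab1 occur in other genes, those of Hsp90aa1 in pseudogenes.

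Hspd1 and Hspe1, which encode HSP60 and HSP10 of the mitochondrial folding chamber, fell together at 48 h. Hspd1 stood at 468 FPKM in floxed and 514 in wild type cells at 24 h, with q = 0.550, and at 283 in floxed and 532 in wild type cells at 48 h, 1.88-fold lower with q = 0.000165 in the authors' deposited table. Hspe1 stood at 387 FPKM in floxed and 373 in wild type cells at 24 h, with q = 0.829, and at 253 in floxed and 398 in wild type cells at 48 h, 1.57-fold lower with q = 0.000863. For both genes the floxed value at 48 h was the lowest of the 4 groups, and the other 3 values lay close together. The ratio of Hspd1 to Hspe1 FPKM was 1.21 in floxed and 1.38 in wild type cells at 24 h, and 1.12 in floxed and 1.34 in wild type cells at 48 h. On chromosome 1 Hspd1 spans 55077835 to 55088243 of the minus strand and Hspe1 spans 55088132 to 55091307 of the plus strand, so their annotated first exons overlap, and 44.8% of the 50-base words of each occur in other genes.

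**Figure D3:**
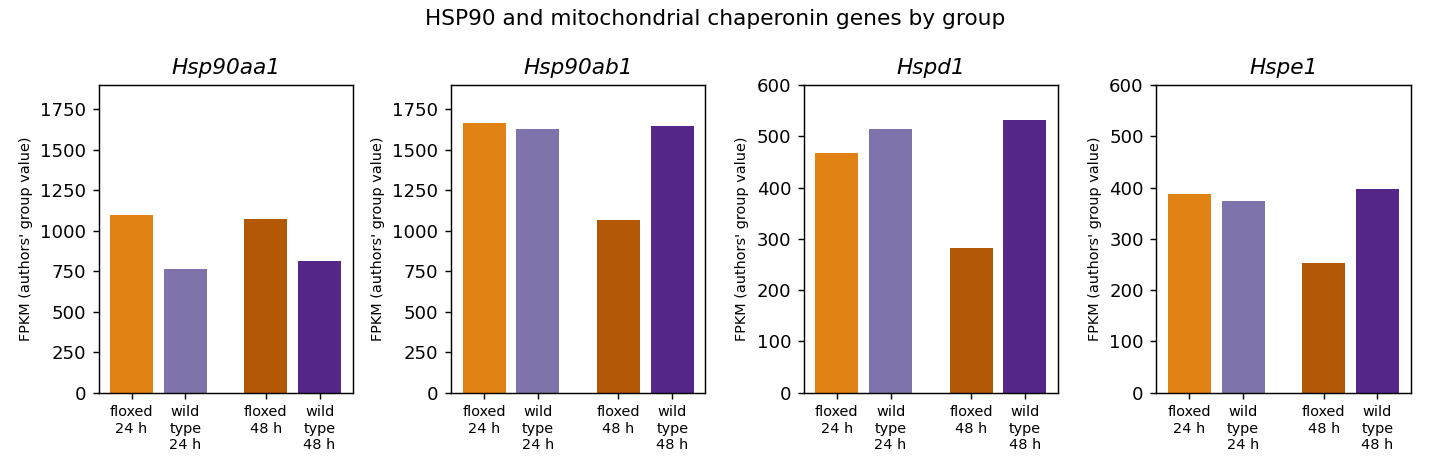
FPKM of the 2 HSP90 genes and the 2 mitochondrial chaperonin genes in each group, on linear axes from 0; bars are the authors' group values, floxed left of wild type at each time, with no error bars. The bars of Hsp90ab1, Hspd1 and Hspe1 are lowest in floxed cells at 48 h, at 1067, 283 and 253 FPKM, and those of Hsp90aa1 are higher in floxed cells at both times.

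Hspb1, the small heat shock protein HSP27 that binds unfolding proteins without ATP, stood at or near 0. It stood at 0.0379 FPKM in floxed cells at 24 h and 0.0948 at 48 h, and was listed at 0 in wild type cells at both times. It was not tested (q = 1 in the authors' deposited table). It spans 135887919 to 135889563 of chromosome 5, plus strand.

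Hspa8 was the highest member in each group. Hsp90ab1 and then Hsp90aa1 came next, except in floxed cells at 48 h, where Hsp90ab1 stood at 1067 and Hsp90aa1 at 1072 FPKM, and Hspd1, Hspe1, Hsph1, Dnajb1, Hspa1b, Hspa1a and Hspb1 followed in that order. Hspa8 ranked between 47 and 84 among 11158 expressed genes, Hsp90ab1 between 68 and 118, Hsp90aa1 between 105 and 139 and Hspd1 between 173 and 371. With 1 value per group, no spread is at hand to say which neighbours in that order differ. The 10 genes together made up 0.850% of all FPKM in floxed and 0.752% in wild type cells at 24 h, and 0.613% in floxed and 0.850% in wild type cells at 48 h. The share is lowest in floxed cells at 48 h. Of the 9 expressed members, 7 had a lower FPKM at 48 h than at 24 h in floxed cells, with ratios from 0.605 for Hspd1 to 0.999 for Dnajb1, and 1 did in wild type cells, Hspa1a. The 7 include Hsp90aa1, at a ratio of 0.976, and Dnajb1, both nearly unchanged. The share of all expressed genes lower at 48 h in each line was not computed. Whether both times were scaled together is not stated, so these counts are descriptions.

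Likeness of pattern was taken as the Euclidean distance between log2(FPKM + 1) values in the 4 groups, centred on their mean, over 7314 genes of at least 5 FPKM in all groups. The genes closest to Hspd1 were Mcfd2, Immp1l, Slc25a10, 1200011I18Rik and Fam53a, at distances of 0.012 to 0.033. Mcfd2, a cargo receptor of the secretory pathway, stood at 145 FPKM in floxed and 159 in wild type cells at 24 h, and at 88.4 in floxed and 165 in wild type cells at 48 h. Hsp90ab1 and Hspe1 were the 719th and 748th closest, at distances of 0.23 and 0.24. Those closest to Hspa1b, the member with the largest difference in log2(FPKM + 1) at 48 h, were Glul, Grap, Myadm, Cebpe and Gadd45b, at distances of 0.11 to 0.16. Hspa1b itself was under 5 FPKM in all groups, so adding 1 shrank its differences far more than those of these genes. With 0.1 added, its log2 difference was 2.40 at 24 h and 3.46 at 48 h, in place of 1.09 and 1.96. Distances were not computed with another pseudocount, so this likeness may come from the pseudocount. Cebpe, a transcription factor of granulocyte maturation, stood at 148 FPKM in floxed and 69.4 in wild type cells at 24 h, and at 313 in floxed and 70.3 in wild type cells at 48 h. Distances over 4 values place many genes close together and are descriptions.

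The rest of the chaperone network was described with 110 genes in 10 lists, of which 109 were in the table and 98 were expressed. At 24 h, 15 were called higher and 10 lower (15.3% and 10.2%, beside 13.4% and 14.2% of all tested genes), with a median log2 difference of 0.03. At 48 h, 21 were called higher and 37 lower (21.4% and 37.8%, beside 25.7% and 31.0%), with a median of -0.22. These shares lie near those of all tested genes. Of these genes, 10 were called higher at both times, 10 were called lower at both times and 0 were called in opposite directions.

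Heat shock factors and stress response genes were called higher more often than lower at 48 h. Of 7 expressed, 1 was higher and 1 lower at 24 h, and 4 were higher and 1 lower at 48 h (median log2 difference 0.24 and 0.44). That is 14.3% each way at 24 h, and 57.1% higher and 14.3% lower at 48 h. Over all tested genes, 13.4% were called higher and 14.2% lower at 24 h, and 25.7% and 31.0% at 48 h. Hsf1, the main activator of heat shock genes, stood at 18.1 FPKM in floxed and 15.0 in wild type cells at 24 h and at 14.0 in floxed and 17.8 in wild type cells at 48 h, called at neither time. Hsf2, a second heat shock factor, rose to 7.72 FPKM in floxed cells, against 4.98 in wild type cells at 24 h, and to 7.84 in floxed cells, against 5.53 in wild type cells at 48 h. Hsbp1, whose product binds heat shock factor trimers, stood at 121 in floxed and 75.2 in wild type cells at 48 h. Hmox1, the haem oxygenase of the oxidative stress response, stood at 100.2 in floxed and 13.3 in wild type cells at 48 h, and the autophagy receptor gene Sqstm1 at 156 in floxed and 84.0 in wild type cells.

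Other HSP70, HSP110 and J-domain genes went both ways. Over all tested genes, 13.4% were called higher and 14.2% lower at 24 h, and 25.7% and 31.0% at 48 h. Of 6 expressed HSP70 and HSP110 genes, 2 were higher and 0 lower at 24 h, and 2 were higher and 1 lower at 48 h (medians 0.05 and -0.20). Hspa1l is among the higher ones at both times, and it reached 1 FPKM through floxed cells at 48 h alone. Hspa2, an HSP70 best known from male germ cells, rose 5.44-fold at 48 h, to 75.8 FPKM in floxed cells, against 13.9 in wild type cells, and Hspa4, an HSP110 protein, fell to 67.1 in floxed cells, against 107.7 in wild type cells. Of 14 expressed J-domain genes, 3 were higher and 3 lower at 24 h, and 4 were higher and 3 lower at 48 h (medians -0.04 and -0.03). That is 21.4% each way at 24 h, and 28.6% higher and 21.4% lower at 48 h. Dnajc9, a histone chaperone, stood at 111 FPKM in floxed and 53.7 in wild type cells at 48 h, and Dnajb4 at 12.7 in floxed and 7.02 in wild type cells. Dnajc2, which acts on nascent chains at the ribosome, stood at 37.9 in floxed and 72.0 in wild type cells, and Dnajb14 at 5.42 in floxed and 8.33 in wild type cells.

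Co-chaperones of HSP90 were called lower more often than higher at 48 h, and those of HSP70 were split. Over all tested genes, 13.4% were called higher and 14.2% lower at 24 h, and 25.7% and 31.0% at 48 h. At 24 h, 6.7% of HSP90 co-chaperones were called higher and 13.3% lower, and 12.5% of HSP70 co-factors each way. None of these 24 h shares is above that of all genes. At 48 h it was 26.7% higher and 53.3% lower for HSP90 co-chaperones, and 37.5% and 25.0% for HSP70 co-factors. Of 15 HSP90 co-chaperones, 1 was higher and 2 lower at 24 h, and 4 were higher and 8 lower at 48 h (medians 0.08 and -0.55). Fkbp4, an immunophilin of steroid receptor complexes, stood at 120 FPKM in floxed and 225 in wild type cells at 48 h, and Nudcd2 at 40.1 in floxed and 85.8 in wild type cells. Cdc37l1 at 20.1 in floxed and 10.2 in wild type cells, and the myosin chaperone gene Unc45a at 19.2 in floxed and 10.6 in wild type cells, were higher. Of 8 HSP70 co-factors, 1 was higher and 1 lower at 24 h, and 3 were higher and 2 lower at 48 h (medians 0.13 and 0.01). Bag2, an exchange factor that also restrains the ligase CHIP, stood at 7.06 FPKM in floxed and 32.7 in wild type cells at 48 h, while Bag6 stood at 87.7 in floxed and 53.6 in wild type cells, Bag1 at 201 in floxed and 136 in wild type cells, and Hspbp1 at 44.6 in floxed and 33.1 in wild type cells.

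Mitochondrial chaperones and the TRiC chaperonin held called genes on the lower side alone, and prefoldin had 1 called gene at each time. Over all tested genes, 13.4% were called higher and 14.2% lower at 24 h, and 25.7% and 31.0% at 48 h. At 24 h, lower calls made up 13.3% of mitochondrial genes and 12.5% of TRiC subunits, near the share of all genes. At 48 h they made up 46.7% and 75.0%. Prefoldin had 20.0% called higher at each time, which is 1 gene of 5 and, at 48 h, under the share of all genes. Of 15 mitochondrial chaperones and proteases, 2 were lower and 0 higher at 24 h, and 7 were lower and 0 higher at 48 h (medians -0.01 and -0.31). Hscb, a J-domain protein of iron-sulfur cluster assembly, stood at 7.12 FPKM in floxed and 17.9 in wild type cells at 48 h, Dnaja3 at 16.2 in floxed and 37.0 in wild type cells, Trap1, the mitochondrial HSP90, at 41.5 in floxed and 89.3 in wild type cells, and Dnajc19 at 42.1 in floxed and 83.9 in wild type cells; the table gives Trap1 and Dnajc19 the same locus as a neighbour, which leaves the split of their reads uncertain. Of 8 TRiC subunits, which form the cytosolic chaperonin for actin and tubulin, 1 was lower at 24 h and 6 were lower at 48 h, with 0 higher at either time (medians -0.19 and -0.55). Cct3 stood at 153 FPKM in floxed and 289.6 in wild type cells at 48 h, Cct5 at 184 in floxed and 323 in wild type cells, Cct6a at 184.0 in floxed and 325 in wild type cells, and Cct7, which also shares its locus with a neighbour, at 133 in floxed and 203 in wild type cells. Of 5 prefoldin subunits in the table, which pass chains to TRiC, 1 was higher at each time, a different gene each time (medians 0.16 and 0.17). The one called at 24 h shares its locus with a neighbour. Pfdn5, the one called at 48 h, stood at 251 in floxed and 172 in wild type cells at that time. Pfdn2, not called, stood at 132 in floxed and 129.7 in wild type cells at 48 h.

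Most small heat shock genes stayed under 1 FPKM, and ER chaperones had called genes on the higher side alone at 24 h and mostly on the lower side at 48 h. Of 9 other small heat shock genes, 3 were expressed. Of these, 1 was higher at 24 h and 2 at 48 h, with 0 lower. Of the 2 higher at 48 h, 1 reached 1 FPKM through floxed cells at 48 h alone, so its passing already required a difference. The median log2 differences were 0.29 at 24 h and 1.21 at 48 h. These medians rest on 3 genes and moved with the settings: the 24 h median was 0.60 after adding 0.1 to each FPKM, 0.09 after adding 5 and 0.02 over all 9 genes unfiltered, and the 48 h median was 0.48 after adding 5 and 0.04 unfiltered. Hspb11, also known as an intraflagellar transport protein, stood at 3.98 FPKM in floxed and 1.16 in wild type cells at 48 h, and Hspb6 at 3.90 in floxed and 4.57 in wild type cells with no call. Of 17 ER chaperones, 5 were higher and 0 lower at 24 h, and 1 was higher and 9 lower at 48 h (medians 0.17 and -0.45). That is 29.4% higher at 24 h, beside 13.4% of all tested genes. At 48 h it is 5.9% higher and 52.9% lower, beside 25.7% and 31.0%. Canx, a lectin chaperone of glycoproteins, stood at 120.5 FPKM in floxed and 247 in wild type cells at 48 h, Dnajc10 at 54.0 in floxed and 116 in wild type cells, and Dnajc3 at 25.0 in floxed and 51.9 in wild type cells. Dnajb9, a J-domain partner of the ER HSP70, was higher at 45.2 in floxed and 15.2 in wild type cells.

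**Figure D4:**
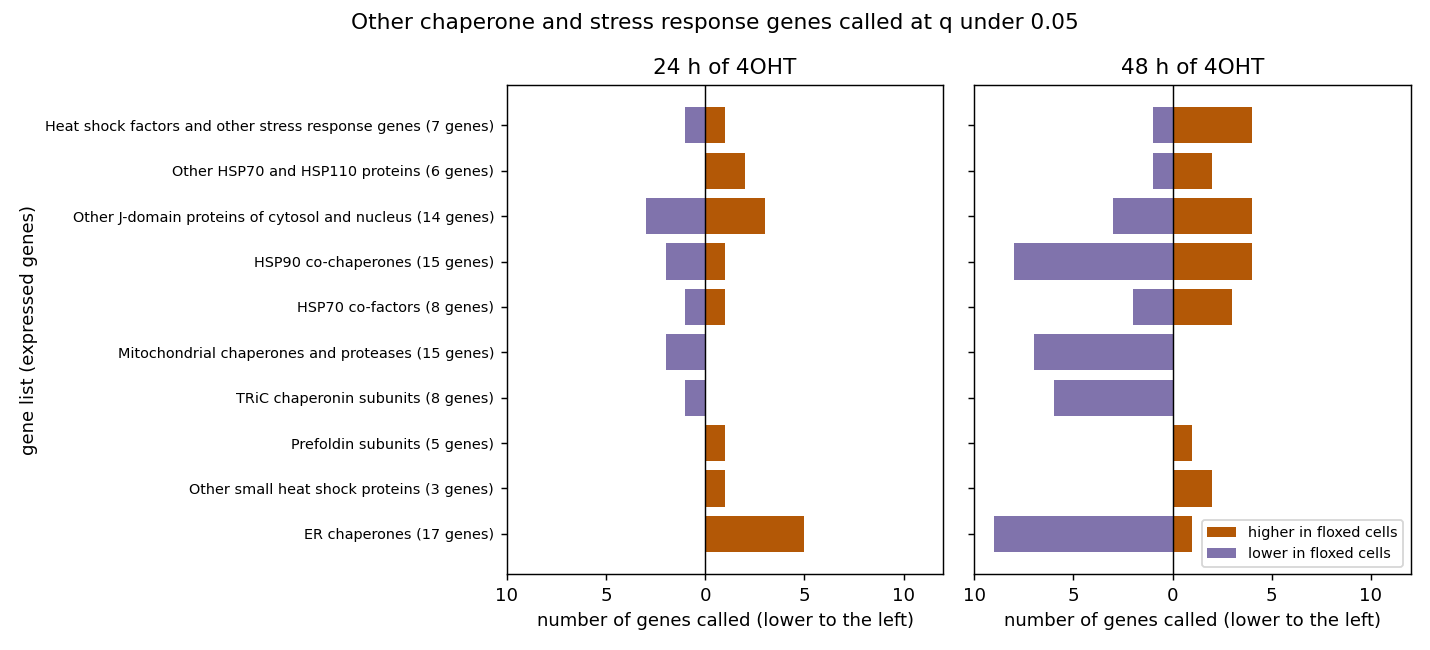
Number of expressed genes of each list called higher (right of 0) or lower (left of 0) in floxed cells at 24 h and 48 h, at the authors' q under 0.05. TRiC and mitochondrial lists have bars on the lower side alone, with 6 of 8 and 7 of 15 genes lower at 48 h, and ER chaperones have 5 higher at 24 h and 9 lower at 48 h. Over all tested genes, 13.4% were called higher and 14.2% lower at 24 h, and 25.7% and 31.0% at 48 h.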

How the data were processed

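Per the labels' protocols, poly(A) RNA of 8 libraries was purified with an RNeasy kit and read on an Illumina HiSeq. The submitters' processing notes name Bowtie2, Cuffdiff, Cufflinks 2.1 and mm10, without roles; strandedness and annotation are not given there. The authors deposited, per the file headers, FPKM per gene and group together with their q-value and fold ratio for each time. The last fold column repeats the 24 h name; it equals the 48 h FPKM ratio, within 0.1%, in 14820 of the 14823 genes with both values above 0. Total reads are not given, so precision per value is unknown.

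Expressed genes had at least 1 FPKM in 1 group (11158, without 27 names turned into numbers), and tested genes also had q under 1. Log2 values used a pseudocount of 1. The design assumed the authors' q as the test, since no fit over libraries can be made from 1 value per group. The p-values measure the spread between duplicates as the authors modelled it. From each list at most 4 genes were named: those called at 48 h with the largest log2 difference and at least 5 FPKM in both groups, or, with fewer than 2 such, the 2 highest, plus Hsf1 and Hsf2. The values of 1 gene that this rule selects are not reported here. Immediate early genes and Hspa1l were named outside that rule, after their values were seen. Members and lists were chosen with earlier results of these data known. Coordinates are from GENCODE M21 (GRCm38, the mm10 assembly), 1-based, and 50-base words were searched in its transcripts on both strands. Alternatives were the pseudocount, rescaling, the filter, the q threshold and leaving out shared loci. Counting and motif steps were tested on simulated data. Python 3.11.15, pandas 2.3.3, numpy 2.4.6 and Biopython 1.88 were used.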

Additional observations from a re-analysis of the deposited data

Results flagged for a closer look

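Hsph1 was singled out because the authors' q called it higher in floxed cells at 24 h and lower at 48 h. Its log2 difference at 48 h minus that at 24 h was -1.05, and that change was not tested, because the table holds 1 value per group.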

How the results depend on the processing

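The 9 expressed members kept the sign of their log2 difference at both times under each alternative that gave them a value. The minimum of 5 FPKM gave none for Hspa1a and Hspa1b, and Hspb1 was not recomputed. Only the rescalings could have changed a sign, because a pseudocount, filter or threshold leaves it fixed. The authors' q was not recomputed, so only the threshold of q under 0.01 could remove a call from a member kept. Across all alternatives, 135 of 140 member values kept their side of the threshold, most of which could not have left it. At q under 0.05 there were 5 calls higher at 24 h, and 3 higher and 5 lower at 48 h. With q under 0.01 the calls of Hspa1a and Hsp90aa1 at 24 h and of Hspa1a, Hspa8 and Hsph1 at 48 h were lost. The members called higher at 24 h then numbered 3 in place of 5, and those lower at 48 h 3 in place of 5. Of the 98 expressed genes of the chaperone lists, 9 were called higher and 5 lower at 24 h, in place of 15 and 10. Over all tested genes, that threshold called 8.86% higher and 9.32% lower at 24 h, and 25.1% lower at 48 h. The share of list genes called higher at 24 h lies near that of all genes. With a minimum of 5 FPKM, which removes Hspa1a and Hspa1b, 3 members were called higher at 24 h and 1 at 48 h. The share of all genes called with that minimum is not given, so these counts have no background. List medians near 0 changed sign: that of mitochondrial chaperones at 24 h was 0.01 and that of HSP70 co-factors at 48 h -0.08 with groups rescaled to the same sum, the median of HSP70 co-factors at 48 h was -0.01 with median-of-ratios factors, and that of J-domain genes at 48 h was 0.03 with a minimum of 5 FPKM. Rescaling the groups to the same sum moved the median of all genes at 48 h to -0.15. For 7 members the difference between floxed and wild type cells was lower at 48 h than at 24 h. That count was the same under the pseudocounts and rescalings run. The counts of members lower at 48 h than at 24 h within a line could change only with a rescaling, because a pseudocount leaves that sign fixed. With groups rescaled to the same sum they stayed at 7 in floxed and 1 in wild type cells. With median-of-ratios factors they were 6 in floxed and 1 in wild type cells. Shares over all genes were not computed for these counts. No paired analysis was possible because the columns carry no replicate: each group has 1 combined value, which also leaves no way to leave out a replicate. Depth is not known, which limits Hspa1a, Hspa1b and Hspb1 most.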
